A study of Mus musculus with 6 samples.

Results

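The class III receptor tyrosine kinases and their ligands were read in RNA from bone marrow cells sorted by flow cytometry. The members are 8 genes taken by symbol, of 17523 rows in the deposited table: the 5 receptors Flt3, Kit, Csf1r, Pdgfra and Pdgfrb and the 3 ligands Flt3l, Kitl and Csf1. The comparison was between 3 libraries from C57BL/6 wild-type (WT) mice and 3 from C57BL/6 mice labelled as NHD13 mutants, in which NUP98, a gene of the nuclear pore, is fused to HOXD13, a homeobox gene, and which are used to study myelodysplastic syndrome. The series calls the sorted cells hematopoietic stem cells. The sort markers, the age of the animals, the promoter of the fusion gene and any pooling of marrows are not stated in the labels. Nothing in the labels says that replicates came from separate animals, so p-values measure the spread between these libraries.

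Receptors of this class sit in the plasma membrane and carry a split kinase domain inside the cell. A dimeric ligand joins a pair of receptor molecules, the kinases phosphorylate each other, and adaptor proteins that bind the phosphorylated tyrosines start the PI3 kinase, RAS-MAP kinase, phospholipase C and STAT5 pathways. In marrow, KIT with its ligand stem cell factor sustains stem cells, erythroid precursors and mast cells, FLT3 with FLT3 ligand supports multipotent, lymphoid and dendritic precursors, CSF1R with CSF1 supports monocytes and macrophages, and the PDGF receptors belong mainly to stromal cells.

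Total counts ran from 12541538 to 14388772 per library, and the fusion row held 0 counts in every WT library and 167 to 185 in NHD13. Xist had 5852 to 15472 counts in WT and 9885 in NHD13 replicate 3, but 34 and 28 in NHD13 replicates 1 and 2, while RNA of 4 Y-linked genes was present in all libraries (1476 to 4023 counts). On the second principal component (12.3% of the variance) NHD13 replicate 1 stood at 28.2 and the other NHD13 replicates at -9.44 and -14.1. For the members and the lists of related genes, results that depend on these libraries are given with and without them. Calls of cell type markers are given over all libraries only. Levels are given as CPM (counts relative to the library's total, with totals scaled by the trimmed mean of M values, TMM). Neutrophil markers summed to 45300 to 60200 CPM in WT and 35100 to 37900 CPM in NHD13. By the threshold given below, 7 of 11 tested neutrophil markers fell and 4 did not pass, where 15.3% of all tested genes fell. The 12 stem cell markers summed to 43.2 to 53.2 CPM in WT and 35.7 to 40.6 CPM in NHD13. Of the stem cell markers, 8 reached the filter on low counts given below. Their changes were mixed, as 1 rose, 3 fell and 4 did not pass, with a median log2 change of 0.352. Over all tested genes 15.0% rose and 15.3% fell. Mecom rose 6.64-fold and Hlf fell 3.9-fold, while Tek, which fell, reached the filter only through WT. Procr and Fgd5, which did not reach the filter, had at most 7 and 3 counts in any library.

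Of the 8 members, 6 reached the filter on low counts (0.719 CPM in at least 3 libraries), and each of these 6 did so in all libraries of both groups. Flt3, Csf1r and Csf1 fell in NHD13, Flt3l rose, and Kit and Pdgfrb did not pass the threshold of an adjusted p under 0.05. These 4 called genes compare with 30.3% of 12013 tested genes called in either direction, 15.3% lower and 15.0% higher. The WT and NHD13 libraries did not overlap for any of the 6, which was also so for 46.1% of all tested genes. The median log2 change of the 6 was -0.874, against 0.00115 over all tested genes. Pdgfra and Kitl were too low to test.

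**Figure D1:**
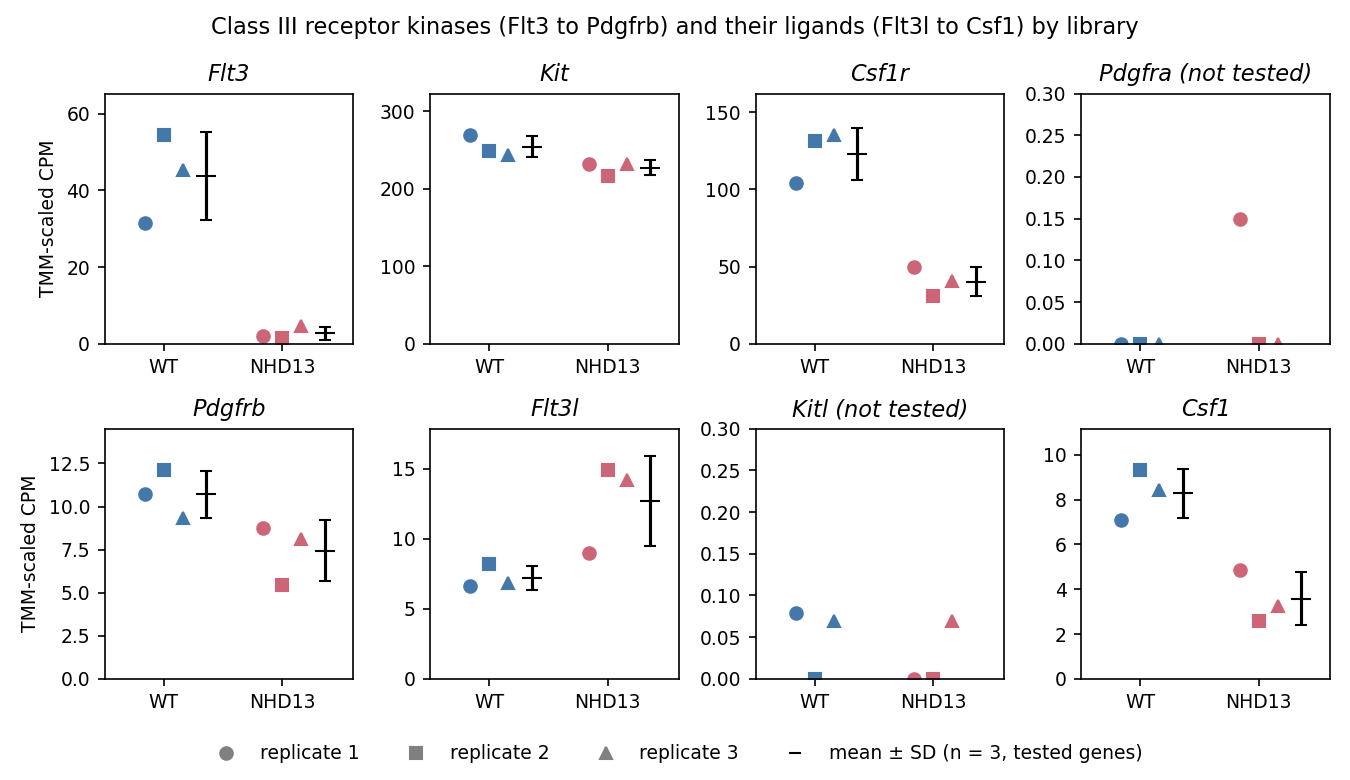
TMM-scaled CPM (vertical axes, from 0) of each receptor and ligand gene in the 3 WT (blue) and 3 NHD13 (red) libraries, with the mean ± SD (n = 3) in black for the tested genes. Flt3 lies between 31.5 and 54.4 CPM in WT and between 1.53 and 4.7 CPM in NHD13, while Kit lies at 244 CPM or more in WT and at 216 to 232 CPM in NHD13.

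The sequences upstream of Flt3, Kit and Flt3l are shown because these genes are a receptor that fell, a receptor that did not pass the threshold and a ligand that rose. The windows are the 250 bases before the annotated start, 5′ to 3′ on the gene's strand, credited to RefSeq on build GRCm38.p6, and 6 of the 8 members matched the promoter table used. Capitals mark every match of 5 short motifs searched on both strands. They lie at chr5:147400490-147400739 (minus strand) for Flt3, chr5:75574737-75574986 (plus strand, the first of its listed starts) for Kit and chr7:45136433-45136682 (minus strand) for Flt3l. The GENCODE model of Kit starts at 75574916, inside the Kit window, so only the 179 bases before it are shown (chr5:75574737-75574915).
Flt3: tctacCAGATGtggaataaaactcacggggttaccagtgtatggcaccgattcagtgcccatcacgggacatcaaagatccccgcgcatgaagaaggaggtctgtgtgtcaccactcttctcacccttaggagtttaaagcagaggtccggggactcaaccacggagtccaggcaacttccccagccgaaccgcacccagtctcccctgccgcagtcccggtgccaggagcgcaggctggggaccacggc
Kit: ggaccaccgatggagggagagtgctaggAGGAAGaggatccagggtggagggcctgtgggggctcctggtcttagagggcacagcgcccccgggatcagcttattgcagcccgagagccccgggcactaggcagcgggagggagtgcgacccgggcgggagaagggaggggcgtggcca
Flt3l: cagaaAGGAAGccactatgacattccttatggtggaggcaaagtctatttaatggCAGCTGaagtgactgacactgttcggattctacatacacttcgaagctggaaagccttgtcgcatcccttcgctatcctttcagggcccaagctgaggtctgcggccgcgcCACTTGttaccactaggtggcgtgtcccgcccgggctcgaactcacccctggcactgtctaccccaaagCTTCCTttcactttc
The Flt3 window held 1 match, an E-box (CANNTG, in 66.22% of 32851 promoter windows of the same length), 245 bases before the start. The Kit window held 1 match to the ETS core AGGAAG (in 29.48% of windows). It lay 222 bases before the start, counted from the end of the full 250 bases, of which 179 are shown. The Flt3l window held 2 matches to AGGAAG, 245 and 15 bases before the start, and 2 E-boxes, 195 and 84 bases before it. No matches overlapped. None of these windows held the MEIS motif TGACAG (15.86% of windows), the GATA motif AGATAA (9.988%) or the RUNX motif TGTGGT (14.05%). The G and C content over the full 250 bases was 59.2% for Flt3, 70.8% for Kit and 53.6% for Flt3l, against a median of 52.4%.

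Flt3, the receptor of early multipotent and lymphoid progenitors (GRCm38 chromosome 5, 147330741 to 147400489, minus strand), had 399, 730 and 652 counts in WT replicates 1 to 3 and 27, 22 and 68 counts in NHD13 replicates 1 to 3. The lowest WT library held several times the counts of the highest NHD13 library. The mean went from 43.8 CPM ± 11.5 to 2.75 CPM ± 1.71 (SD, n = 3 each), a 15.8-fold fall (log2 -3.98, SE 0.35, edgeR quasi-likelihood adjusted p = 0.000229). The 95% interval of the fold was 9.15 to 27.2, and 24 tested genes had a larger log2 fall. Within NHD13 the exact Poisson 95% interval of replicate 3 (3.67 to 5.99 CPM on library totals) lay above those of replicates 1 (1.32 to 2.91) and 2 (0.958 to 2.31). These intervals cover counting error only. Without NHD13 replicate 3, the one NHD13 library with abundant Xist RNA, the log2 change was -4.63 (adjusted p = 0.000117), and with the share of Y-linked counts as a covariate it was -3.03 (adjusted p = 0.00107). The fall held in all 15 alternatives run.

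In such bulk libraries, fewer cells of a type and less RNA per cell cannot be told apart. Of 10 early lymphoid and multipotent progenitor markers, 10 were tested and 10 fell, where 15.3% of all tested genes fell and 15.0% rose. Their summed level was 382 to 453 CPM in WT and 136 to 205 CPM in NHD13. Rag1, Rag2 and Ccr9 of these reached the filter only through WT. Dntt, the terminal transferase of lymphoid precursors, fell 26.3-fold, and Cd34, a progenitor surface protein, 3.73-fold. Of 12 tested dendritic cell markers 8 fell, 2 rose and 2 did not pass, with sums of 167 to 227 CPM in WT and 119 to 142 CPM in NHD13. The invariant chain gene Cd74, which accompanies MHC class II, fell 9.97-fold. The transcription factor genes Zbtb46, of conventional dendritic cells, and Tcf4, of plasmacytoid ones, rose 2.03-fold and 1.37-fold. Siglech, Clec9a, Itgax and Cd7, which fell, reached the filter only through WT. No marker of these lists was at 0 in every library, and Batf3, a factor of conventional dendritic cells, was at 0 in the NHD13 libraries with 17 counts in WT. Their part in the fall of Flt3 was not tested.

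Kit, the stem cell factor receptor (chromosome 5, 75574916 to 75656722, plus strand), was the most abundant member. It had 3409, 3337 and 3499 counts in WT and 3092, 3101 and 3359 in NHD13. After scaling, all NHD13 libraries lay below all WT libraries, by little. The mean went from 254 CPM ± 13.7 to 227 CPM ± 9.45 (SD, n = 3 each), and the log2 difference of -0.16 (SE 0.0654) did not pass (edgeR adjusted p = 0.0884). The 95% interval ran from a 1.01-fold to a 1.24-fold lower level. It passed with upper-quartile scaling (log2 -0.21, adjusted p = 0.0402) and without NHD13 replicate 1 (-0.18, adjusted p = 0.0311). KIT is a common sort marker of such cells. If it was gated on here, its level in the sorted cells cannot be told apart from the gate. Of 8 tested markers of mast cells and basophils, which carry KIT or descend from precursors that do, 7 fell. Over all tested genes 15.3% fell and 15.0% rose. The markers summed to 461 to 763 CPM in WT and 147 to 187 CPM in NHD13. Fcer1a and Cd200r3 of these reached the filter only through WT. Among the protease genes of the list, Mcpt4 and Tpsb2 had at most 1 count in any library. Cma1 had 7 counts over the WT and 13 over the NHD13 libraries, and was not tested. Cpa3 was well above the filter and fell 7.03-fold, from 63.6 CPM ± 14.3 to 9.05 CPM ± 3.09 (n = 3 each). Of 6 tested erythroid markers 5 rose, with sums of 1660 to 1880 CPM in WT and 2110 (replicate 1) to 3750 CPM in NHD13. Their part in the level of Kit was not tested.

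Csf1r, the receptor of monocytes and macrophages (chromosome 18, 61100598 to 61132149, plus strand), had 1317, 1759 and 1932 counts in WT and 662, 443 and 585 in NHD13. The highest NHD13 library lay well below the lowest WT library. The level fell 3.06-fold, from 123 CPM ± 16.7 to 40.3 CPM ± 9.42 (n = 3 each, log2 -1.61, SE 0.17, adjusted p = 0.00061). With the Y-linked covariate the log2 change was -1.30 (adjusted p = 0.0379), and the fall held in all 15 alternatives run. On the other strand the gene Hmgxb3 shares 15.1% of the exonic bases of Csf1r. It had 1886 counts over the WT and 2467 over the NHD13 libraries, and whether counting used strand is not known, so reads of the shared bases are uncertain. Of 10 tested monocyte and macrophage markers 8 fell, where 15.3% of all tested genes fell and 15.0% rose. The markers summed to 1700 to 1930 CPM in WT and 781 to 1200 CPM (replicate 1) in NHD13. Ccr2, the chemokine receptor of inflammatory monocytes, fell 5.03-fold. Adgre1 (14.9 CPM ± 2.89 in WT, 13.7 CPM ± 2.92 in NHD13) and Mrc1 (2.56 CPM ± 0.505 and 2.03 CPM ± 0.594), both macrophage surface proteins, did not pass (n = 3 each, adjusted p = 0.646 and 0.383). Of the untested markers, C1qa had 6 and 9 counts and Mertk 1 and 5 counts over the WT and NHD13 libraries. Their part in the fall of Csf1r was not tested.

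Pdgfrb, a receptor of stromal and perivascular cells that lies 15536 bases from Csf1r on chromosome 18 (61045150 to 61085061, plus strand), had 135, 162 and 134 counts in WT and 117, 78 and 117 in NHD13. The groups lay close, with the lowest WT library at 9.34 CPM and the highest NHD13 library at 8.78 CPM. The mean was 10.7 CPM ± 1.36 against 7.43 CPM ± 1.77 (SD, n = 3 each, log2 -0.53, SE 0.19, adjusted p = 0.0712). The difference passed without NHD13 replicate 1 (log2 -0.66, adjusted p = 0.0106) and without replicate 1 of both groups (-0.66, adjusted p = 0.00858). Other stromal and endothelial markers were scarce. Of 12 with a row, 3 were tested and 6 had under 10 counts in every library, among them the collagen gene Col3a1 with 0 counts in WT and 1 in NHD13. Of those tested, Lepr (138 counts in WT, 171 in NHD13) and Col1a1 (48 and 40) did not pass (edgeR adjusted p = 0.34 and 0.459). Pecam1, which blood cells also express, was the 1 of the 3 tested markers that fell (2.34-fold), where 15.3% of all tested genes fell. Without Pecam1 the list summed to 6.41 to 7.59 CPM in WT and 5.15 to 7.43 CPM in NHD13. Pdgfra, the other PDGF receptor (chromosome 5, 75152292 to 75198215, plus strand, 376700 bases from Kit), had 0 counts in WT and 2 counts in NHD13, both in replicate 1. A count of 0 over the WT libraries allows up to 0.0743 CPM at a floor of 3 counts, so a difference was not detectable at this depth.

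Among the ligands, Flt3l, which encodes FLT3 ligand (chromosome 7, 45129788 to 45136432, minus strand), had 84, 110 and 98 counts in WT and 120, 214 and 205 in NHD13. NHD13 replicate 1 lay just above the WT range and the other NHD13 replicates well above it. The level rose 1.76-fold, from 7.22 CPM ± 0.845 to 12.7 CPM ± 3.21 (n = 3 each, log2 0.81, SE 0.20, adjusted p = 0.0186). Leaving out WT replicate 1 or 3 ended the call (adjusted p = 0.0625 and 0.0788), as did leaving out NHD13 replicate 2 or 3 (0.074 and 0.0677) and the Y-linked covariate (log2 0.94, adjusted p = 0.148). Without NHD13 replicate 1 the log2 change was 1.01 (adjusted p = 6.2e-05). In the annotation the gene shares 22.1% of its exonic bases with the gene model Gm45713 on the same strand, so its counts are uncertain.

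Csf1, the ligand of CSF1R (chromosome 3, 107741048 to 107760469, minus strand), had 90, 125 and 121 counts in WT and 65, 37 and 47 in NHD13. The groups were separate, with NHD13 replicate 1 again nearest to WT. The level fell 2.33-fold, from 8.28 CPM ± 1.1 to 3.57 CPM ± 1.18 (n = 3 each, log2 -1.22, SE 0.24, adjusted p = 0.00709). The call was lost with the Y-linked covariate (log2 -0.99, adjusted p = 0.183) and held in the other 14 alternatives. Kitl, which encodes stem cell factor (chromosome 10, 100015630 to 100100416, plus strand) and in marrow is made by stromal and endothelial cells, had 2 counts over the WT and 1 over the NHD13 libraries, with exact Poisson 95% intervals of 0.006 to 0.179 CPM and 0.000599 to 0.132 CPM.

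**Figure D2:**
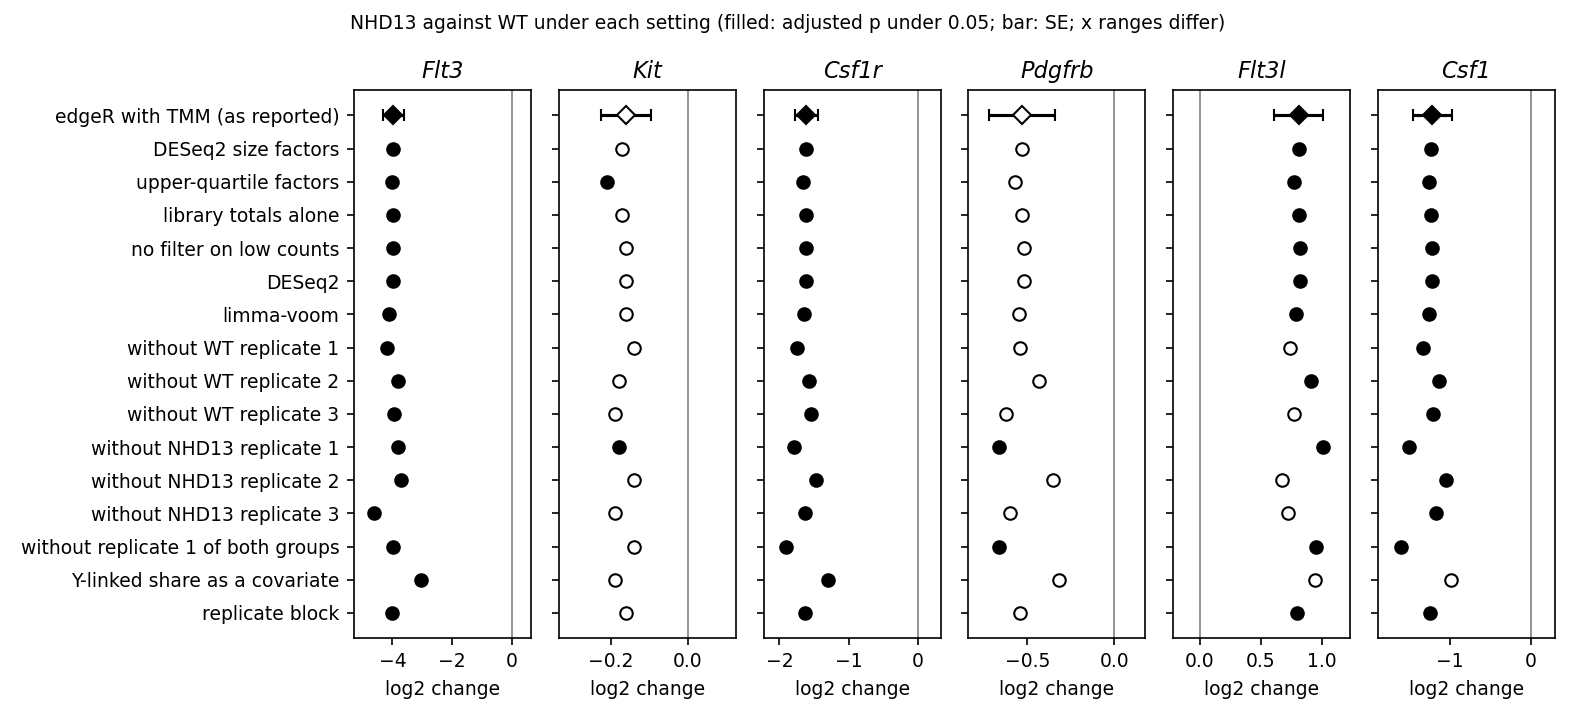
The log2 change of NHD13 against WT (horizontal axes, with different ranges) of the 6 tested members under the reported fit and 15 alternatives, filled where the adjusted p was under 0.05, with the SE as a bar on the reported value. No direction reversed, Flt3 and Csf1r are filled throughout, and Flt3l is open in 5 alternatives.

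Levels of different genes were compared per kilobase of exonic length. In WT the mean order, in CPM per kilobase, was Kit (28.5 ± 1.53), Csf1r (21.3 ± 2.89), Flt3 (7.09 ± 1.86), Pdgfrb (1.95 ± 0.249), Flt3l (1.86 ± 0.218) and Csf1 (1.57 ± 0.209), SD with n = 3. The ranges of Pdgfrb, Flt3l and Csf1 overlapped and those of the others did not. In NHD13 the order was Kit (25.4 ± 1.06), Csf1r (6.98 ± 1.63), Flt3l (3.27 ± 0.828), Pdgfrb (1.36 ± 0.323), Csf1 (0.675 ± 0.224) and Flt3 (0.446 ± 0.276), with overlap only between the ranges of Csf1 (0.487 to 0.923) and Flt3 (0.248 to 0.761). Flt3 thus stood above Pdgfrb and both tested ligands in WT and last of the tested members in NHD13.

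In the make-up of receptor RNA, which does not depend on scaling between libraries, the shares of Flt3 and Csf1r were lower and that of Kit higher in the NHD13 libraries, although the level of Kit itself was not higher. In CPM per kilobase summed over the receptors, Kit took 54.7%, 45.3% and 45.8% in WT and 71.2%, 78.6% and 73.8% in NHD13. Csf1r took 36.2% ± 3.27 in WT and 20.2% ± 3.11 in NHD13, and Flt3 took 11.9% ± 2.55 and 1.29% ± 0.755 (n = 3 each). The groups were separate for all of these, and for Flt3 reads per 100 Kit reads, which were 11.7, 21.9 and 18.6 in WT and 0.873, 0.709 and 2.02 in NHD13. Each gave p = 0.1 in a two-sided exact permutation test, the smallest p that 3 against 3 libraries allow, and 0.125 after Benjamini-Hochberg adjustment over the 5 values compared. The share of Pdgfrb was 3.32% ± 0.402 in WT and 3.93% ± 0.622 in NHD13 (exact permutation p = 0.3, adjusted p = 0.3). Flt3l counts per Flt3 count were 0.211, 0.151 and 0.15 in WT and 4.44, 9.73 and 3.01 in NHD13, so that ligand reads were fewer than receptor reads in each WT library and more in each NHD13 library. Csf1 counts per 100 Csf1r counts differed far less, at 6.83, 7.11 and 6.26 in WT and 9.82, 8.35 and 8.03 in NHD13.

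**Figure D3:**
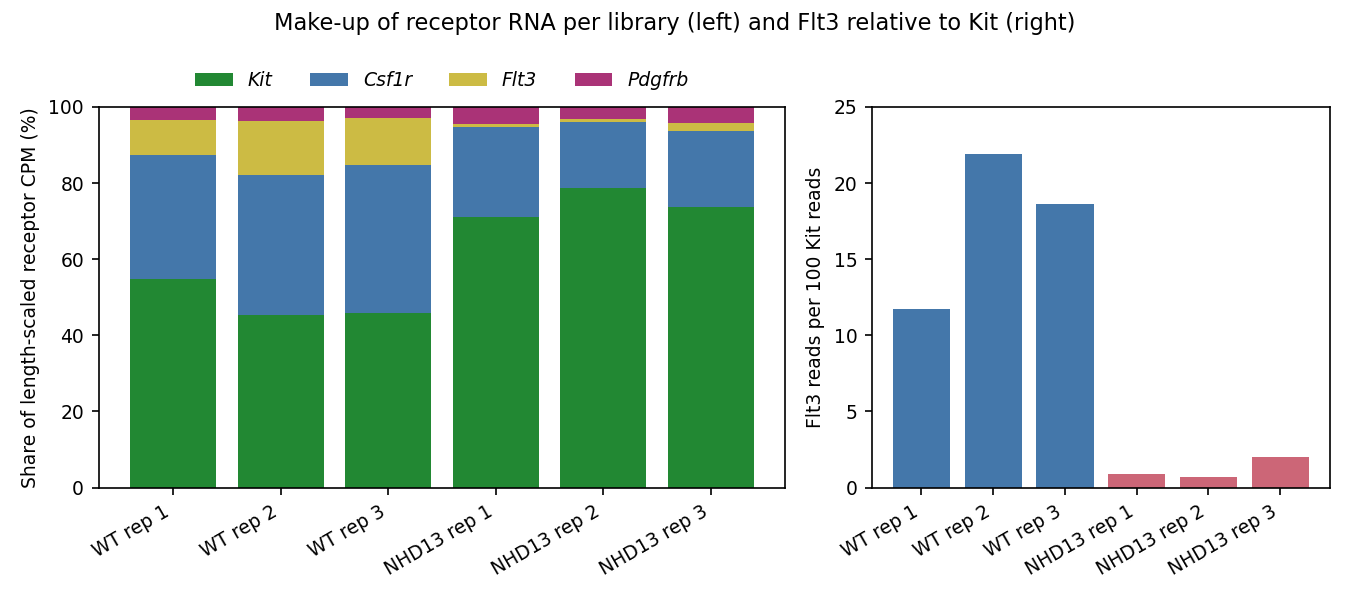
Left, the share (%) of each receptor gene in the summed receptor CPM per kilobase of each library, with Pdgfra too low to draw. Right, Flt3 reads per 100 Kit reads (WT blue, NHD13 red). Flt3 takes 9.23% to 14.3% of receptor RNA in the WT libraries and 0.805% to 2.16% in the NHD13 libraries.

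Genes with the most similar profiles over the 6 libraries were found by the root mean square difference of log2 CPM, centred per gene, among 9639 genes. Among those nearest to Flt3 were the basophil protease gene Mcpt8 (difference 0.343, mean levels of 98.5 CPM in WT and 5.56 CPM in NHD13), Dntt (0.388) and Fkbp9 (0.445). Nearest to Csf1r were Rasa4 (0.109), Cd244 (0.111), Ifi203 (0.113) and Tpd52 (0.115). Nearest to Flt3l were Tango2 (0.0465), Fads1 (0.0608), Ssbp3 (0.0644) and Nek8 (0.0662). Nearest to Csf1 were Trf, the transferrin gene (0.0421), Bin1 (0.0537), Fgd2 (0.0896) and Afap1l1 (0.0955).

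Related ligands and receptors outside the 8 members were low. Of the other PDGF ligands, Pdgfd alone was tested, with 1.02 CPM ± 0.278 against 1.95 CPM ± 0.785 (WT against NHD13, n = 3 each, log2 0.94, SE 0.37, adjusted p = 0.0834), so 0 of 1 passed by edgeR, DESeq2 or limma-voom and 1 had an unadjusted edgeR p under 0.05. Pdgfb had 20 counts over the WT and 6 over the NHD13 libraries, Pdgfa 6 and 8, and Pdgfc 1 and 1. Of the VEGF receptors, which belong to a sister class of kinases, Flt1 was tested, which lies 161114 bases from Flt3, and 0 passed by the same tools or at an unadjusted p under 0.05. Flt1 had 5.78 CPM ± 1.71 against 4.68 CPM ± 2.58 (WT against NHD13, n = 3 each, log2 -0.31, SE 0.37, adjusted p = 0.549). Without NHD13 replicate 1, Pdgfd passed as higher and Flt1 as lower. Kdr, 276104 bases from Kit, had 12 and 4 counts and Flt4 7 and 9.

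The relay that carries the receptors' signal was expressed in both groups, with summed levels of 4850 to 5160 CPM in WT and 4450 to 4800 CPM in NHD13. Of 41 tested relay genes 13 fell, 5 rose and 23 did not pass, with a median log2 change of -0.0735, where 15.3% of all tested genes fell and 15.0% rose. Changes were small beside that of Flt3. Plcg1, a phospholipase C that binds activated receptors, fell 1.59-fold (22.3 CPM ± 1.61 to 14 CPM ± 2.26, adjusted p = 0.00774), and Pik3cg, a PI3 kinase catalytic subunit, fell 1.39-fold (adjusted p = 0.00637). Pik3r2, a PI3 kinase regulatory subunit, rose 1.56-fold (45.1 CPM ± 1.5 to 70.3 CPM ± 11.8, adjusted p = 0.00613), and the MAP kinase kinase gene Map2k2 rose 1.34-fold (adjusted p = 0.00585). Among adaptors, chosen after their values were seen, Gab1 rose 2.07-fold (14 CPM ± 1.92 to 29.1 CPM ± 8.19) and Gab2 fell 1.49-fold (39.4 CPM ± 1.9 to 26.5 CPM ± 6.06, n = 3 each). The number of relay genes that fell was 3 without WT replicate 2, 4 without WT replicate 3, 5 without NHD13 replicate 2 and 3 without NHD13 replicate 3. With the Y-linked covariate in edgeR, 0 relay genes passed in either direction, and 4 higher and 7 lower had an unadjusted p under 0.05.

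Of 27 tested negative regulators and turnover genes 4 fell, 2 rose and 21 did not pass, with a median log2 change of -0.0967. These counts are no larger a share than over all tested genes (15.3% lower and 15.0% higher). Socs2, an inhibitor that STAT5 signalling is known to induce, had 13 counts over the WT and 58 over the NHD13 libraries and rose 4.19-fold (adjusted p = 0.00409), reaching the filter only through NHD13. Spry1, an inhibitor of the RAS-MAP kinase pathway, fell 2.71-fold, from 1.94 CPM ± 0.592 to 0.714 CPM ± 0.2 (n = 3 each, adjusted p = 0.0167), reaching the filter only through WT. Its relative Spry4, chosen after its values were seen, went the other way. Spry4 rose 2.16-fold, from 1.53 CPM ± 0.526 to 3.27 CPM ± 0.861 (n = 3 each, edgeR adjusted p = 0.0276), and Spry2 did not pass (adjusted p = 0.0517). Sla, an adaptor that promotes receptor breakdown, fell 1.38-fold (227 CPM ± 11 to 164 CPM ± 28.9, adjusted p = 0.0171). The number that fell was 0 without WT replicate 2, WT replicate 3 or NHD13 replicate 3, where 6, 7 and 5 had an unadjusted edgeR p under 0.05, 1 without NHD13 replicate 2, and 10 without NHD13 replicate 1. With the Y-linked covariate 0 passed, and 1 higher and 2 lower had an unadjusted p under 0.05.

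Of 16 tested transcription factors known to act at Flt3, Kit or Csf1r, 5 fell, 4 rose and 7 did not pass, with a median log2 change of -0.199, against 15.3% lower and 15.0% higher over all tested genes. Irf8, a factor of monocytes and dendritic cells, fell 3.53-fold (279 CPM ± 45.7 to 79.1 CPM ± 28.9, adjusted p = 0.00139), and Meis1, a homeobox factor, fell 2.81-fold (adjusted p = 0.000843). Hoxa9 rose 6.34-fold (6.22 CPM ± 0.998 to 39.4 CPM ± 1.07, n = 3 each, adjusted p = 1.56e-05) and the erythroid factor gene Gata1 2.23-fold (adjusted p = 0.00609). With the Y-linked covariate Hoxa9 passed and the other 3 did not (adjusted p = 0.0734 for Irf8, 0.051 for Meis1 and 0.0616 for Gata1). The number that fell was 2 when replicate 2 or 3 of either group was left out, 9 without NHD13 replicate 1 and 8 with the replicate number as a block.

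**Figure D4:**
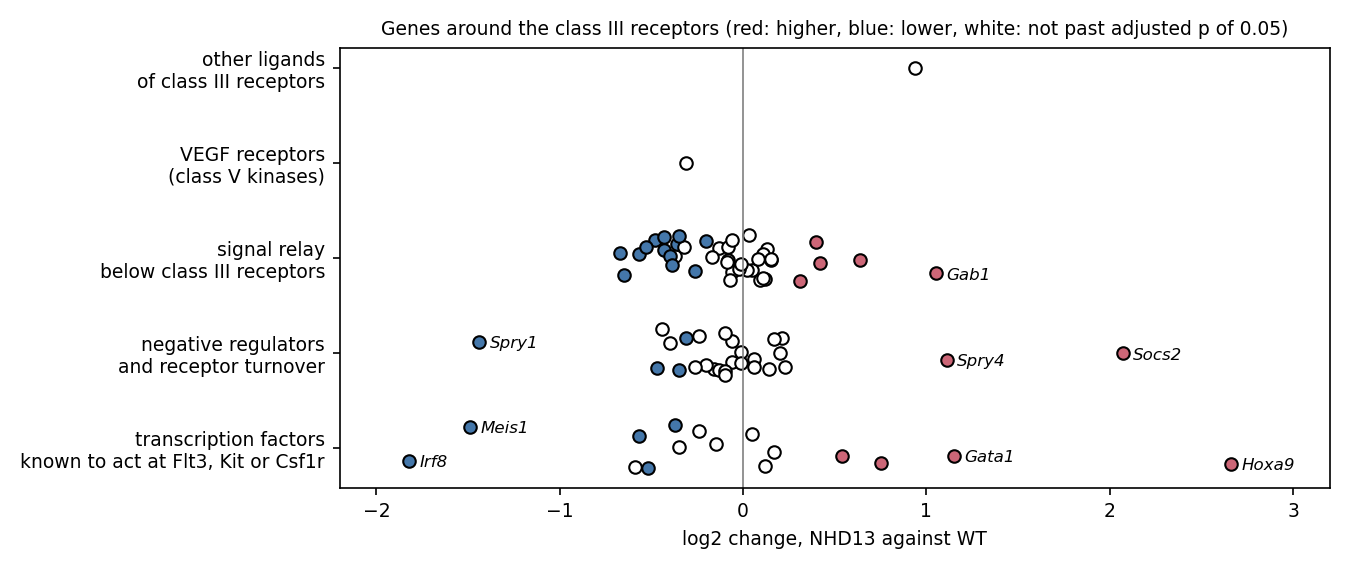
The log2 change of NHD13 against WT (horizontal axis) of each tested gene around the class III receptors, 1 point per gene and 1 row per list, red where higher and blue where lower at an adjusted p under 0.05 and white otherwise. Called genes past a log2 change of 1 in either direction are named. Most relay genes lie close to 0, and the widest spread is among the transcription factors, from Irf8 at -1.82 to Hoxa9 at 2.66.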

How the data were processed

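RNA from sorted marrow cells was sequenced in 3 WT and 3 NHD13 libraries. The values deposited by the authors are raw counts per gene, not normalised. Bowtie2 2.2.1 and HTSeq 0.5.4p3 are named, with build mm10, in the submitters' processing notes, while the annotation and the strand setting are not stated there. Columns were matched to samples by the group letters and replicate number in their names. Of 17523 rows, 0 named no gene.

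edgeR 4.0.16 in R 4.3.3 was used on the counts. Genes were kept by filterByExpr (minimum count 10), which left 12013 and set 5510 aside, libraries were scaled by TMM, and the quasi-likelihood F test (robust) had the group as its term, with Benjamini-Hochberg adjustment over all tested genes and a threshold of 0.05, two-sided. Standard errors were derived from the log2 change and its F statistic. CPM are TMM-scaled. The script was tested on simulated data. Depth allowed 0.207 to 0.237 CPM for a count of 0 per library at a floor of 3 counts. Exact tests used SciPy 1.17.1. The alternatives were DESeq2 1.42.0, limma-voom (limma 3.58.1), other scalings, no filter, libraries left out, a Y-linked covariate and a replicate block. Gene positions and exonic lengths (the union of exons) were taken from GENCODE vM21 on GRCm38, the same assembly as mm10, and the authors' gene models may differ.

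The members and gene lists were chosen with earlier results of these data known. The genes named are the members, up to 4 genes per pathway list with the lowest p past the threshold (or the 2 most abundant), listed markers, and the 4 genes with the profile most like each called member among those whose mean log2 CPM reached 2. Other markers, such as those quoted as scarce, are from the marker lists. Of 216 listed genes, 206 matched by symbol, 3 by an older symbol (Hras, Spi1 and Adgre1), and 7 are not analysed here. Some genes that the rule names are not reported here.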

Additional observations from a re-analysis of the deposited data

How the results depend on the processing

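Over 15 alternatives the log2 change of none of the 6 tested members reversed. Flt3 (-4.63 to -3.03) and Csf1r (-1.90 to -1.30) stayed past the threshold in all of them. Leaving out 1 library at a time gave log2 changes of -4.63 to -3.70 for Flt3, -0.19 to -0.14 for Kit, -1.79 to -1.47 for Csf1r, -0.66 to -0.35 for Pdgfrb, 0.67 to 1.01 for Flt3l, -1.5 to -1.05 for Csf1 and -4.42 to -3.66 for the Flt3 to Kit ratio (-3.96 over all libraries). The same omissions gave 760 (without NHD13 replicate 2) to 3012 (without NHD13 replicate 1) higher and 957 (without WT replicate 2) to 2966 (without NHD13 replicate 1) lower genes in all, 0 to 1 higher and 3 to 5 lower members, 0 to 1 higher other ligands, 0 to 1 lower VEGF receptors, 3 to 7 higher and 3 to 15 lower relay genes, 1 to 3 higher and 0 to 10 lower negative regulators, and 3 to 6 higher and 2 to 9 lower transcription factors.

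Without replicate 1 of both groups, 3244 genes were higher and 3245 lower, with 1 higher other ligand, 1 lower VEGF receptor, 8 higher relay genes, 4 higher and 11 lower negative regulators and 9 lower transcription factors, and Pdgfrb passed (log2 -0.66). The Y-linked genes summed to 192, 110 and 113 CPM in WT and 252, 280 and 176 CPM in NHD13, so this covariate partly follows the groups. With so few libraries, a call lost with it cannot be told apart from lost power. With the Y-linked covariate, 111 genes were higher and 175 lower. No member was higher (0 by edgeR, with 1 at an unadjusted p under 0.05, 1 by DESeq2 and 1 by limma-voom, both without the covariate). The calls of Flt3l (log2 0.94) and Csf1 (-0.99) were lost. In the lists 0 relay genes, 0 negative regulators and 0 lower transcription factors passed, and 1 higher one did. At an unadjusted p under 0.05 these were 4 higher and 7 lower, 1 higher and 2 lower, and 3 lower. Upper-quartile scaling, which moved the median log2 change by -0.0429, gave 7 lower negative regulators and passed Kit (-0.21). The cause of these changes was not tested.

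The replicate numbers were not taken as pairs. Deviations of same-numbered libraries from their group means correlated at 0.249, 0.0632 and 0.175, and NHD13 replicate 2 correlated best with WT replicate 3 (0.149). With the replicate block 8 transcription factors fell and Flt3 had a log2 change of -4.00. Without the filter Pdgfra and Kitl could be fitted but rest on 3 counts or fewer in all. The calls rest on 3 libraries per group, and low members on few counts.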
